A study of Mus musculus with 4 samples.

Results

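Endothelial and liver sinusoid genes were followed in bulk RNA from cells sorted as tumour-associated macrophages. The members were 38 genes given by symbol, and all 38 were among the 24784 genes of the deposited table. The rule sets 7 of them apart as sinusoid genes (Stab2, Lyve1, Clec1b, Clec4g, Oit3, Gpr182 and Flt4), and the other 31 are called pan-endothelial here, although Ehd3 and Bmp2 among them are also known from the sinusoid. The study compared 2 control libraries with 2 OXCT1mKO libraries, a genotype label that names Oxct1, the ketone body enzyme gene, as the target. All 4 were taken from tumour-bearing livers of males, 6 to 8 weeks old, treated with Hepa 1-6, a hepatoma line of the mouse. The sources used here do not give the Cre driver, the alleles of the controls or any pooling of animals. Liver was digested with collagenase, leukocytes were enriched on Percoll and macrophages were sorted by flow.

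Endothelial cells line blood and lymph vessels. They respond to vascular endothelial growth factor (VEGF) and angiopoietin through receptor tyrosine kinases, are joined by junction proteins such as VE-cadherin, and keep their identity through transcription factors of the ETS and SOX families. In the liver, sinusoidal endothelial cells form a fenestrated lining without a continuous basement membrane, clear waste molecules from the blood with scavenger and lectin receptors, and lie beside Kupffer cells, the resident macrophages. Some of the genes are not limited to endothelium: Pecam1 and Eng are also known from leukocytes and macrophages, Lyve1 from some tissue macrophages, Clec1b from platelets and myeloid cells, and Tal1 from blood cell progenitors.

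The promoter regions of 6 members are shown as a description of sequence. Whether promoters had a part in the differences between the groups was not tested. RefSeq promoter windows of build GRCm38.p6 matched 20 of the 38 genes, and the 250 bases before the annotated start were searched for AGGAAG, a core that ETS factors bind, on both strands, where it reads CTTCCT on the opposite one. Of the 20 genes, 12 held a match in at least 1 window, and 13 of their 26 windows did, against 29.5% of all 32851 windows of that length. The match was present in 9 of the 16 matched genes that rose and in 3 of the 4 that did not. A SOX core, AACAAT with its reverse complement ATTGTT, lay in 4 of the 26 windows against 9.42% of all windows, and a GATA core, AGATAA with its reverse complement TTATCT, in 2 against 9.99%. A match is a description of the letters and not evidence of binding. The windows are given 5′ to 3′ on the strand of the gene, with exact AGGAAG and CTTCCT letters in capitals. Variants of this core were not searched, so a window without capitals may still hold other letters that ETS factors bind. They are Kdr (chr5:75978456-75978705, minus strand), Flt1 (chr5:147726012-147726261, minus), Dll4 (chr2:119325534-119325783, plus), Eng (chr2:32646345-32646594, plus), Clec4g (chr8:3720652-3720901, minus) and Cldn5 (chr16:18776597-18776846, plus). The first 5 rose and Cldn5 did not pass the test, and Clec4g is the most abundant sinusoid gene of the set.
Kdr: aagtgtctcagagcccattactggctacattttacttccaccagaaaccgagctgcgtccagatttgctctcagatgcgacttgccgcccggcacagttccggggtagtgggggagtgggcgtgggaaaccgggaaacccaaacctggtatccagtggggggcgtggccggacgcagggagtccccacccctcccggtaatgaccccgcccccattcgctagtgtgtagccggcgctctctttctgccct
Flt1: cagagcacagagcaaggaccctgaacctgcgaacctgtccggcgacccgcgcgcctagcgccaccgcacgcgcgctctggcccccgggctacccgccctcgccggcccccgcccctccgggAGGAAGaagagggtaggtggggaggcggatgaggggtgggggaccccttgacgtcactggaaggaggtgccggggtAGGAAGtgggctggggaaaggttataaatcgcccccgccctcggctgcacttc
Dll4: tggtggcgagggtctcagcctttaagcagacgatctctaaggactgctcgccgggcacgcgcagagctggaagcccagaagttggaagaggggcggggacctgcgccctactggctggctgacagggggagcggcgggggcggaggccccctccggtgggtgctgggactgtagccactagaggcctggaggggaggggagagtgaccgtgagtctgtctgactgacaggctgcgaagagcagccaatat
Eng: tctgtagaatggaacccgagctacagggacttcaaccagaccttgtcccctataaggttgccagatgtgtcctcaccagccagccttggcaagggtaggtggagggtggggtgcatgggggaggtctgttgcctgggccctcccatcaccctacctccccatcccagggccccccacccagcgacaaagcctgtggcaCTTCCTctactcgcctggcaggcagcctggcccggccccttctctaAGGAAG
Clec4g: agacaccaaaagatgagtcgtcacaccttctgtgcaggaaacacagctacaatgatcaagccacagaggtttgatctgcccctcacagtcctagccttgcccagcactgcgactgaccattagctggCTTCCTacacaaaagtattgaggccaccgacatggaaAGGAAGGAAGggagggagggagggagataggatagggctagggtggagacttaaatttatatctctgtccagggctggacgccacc
Cldn5: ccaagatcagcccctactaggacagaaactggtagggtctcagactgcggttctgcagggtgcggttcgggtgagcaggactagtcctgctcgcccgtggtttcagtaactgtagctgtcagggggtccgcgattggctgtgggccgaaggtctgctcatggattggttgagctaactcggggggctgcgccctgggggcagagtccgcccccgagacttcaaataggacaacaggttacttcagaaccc

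Transcripts of macrophage and of endothelial genes were both present in every library, and which cells they came from was not tested. Levels are given in RPKM, which divides the reads of a gene by its length and by the size of the library, and they summed to 325034 to 377575 per library. Oxct1 was 19.3 and 20.3 RPKM in control libraries against 14.7 and 15.4 RPKM in OXCT1mKO, a fall of 0.37 on the log2 scale (limma adjusted p 0.0346). Macrophage markers were present, with Csf1r, the receptor for macrophage colony-stimulating factor, at 45.8 and 28.8 RPKM in control libraries against 128 and 115 RPKM in OXCT1mKO. The endothelial members spanned a wide range, with control means from 0.166 RPKM for Aplnr to 455 RPKM for Clec4g. Per length, Kdr was above Csf1r but below Cd14, C1qa, C1qb and C1qc in each of the 4 libraries. Clec4g was the highest of the 38 members in both groups. Together the 38 genes made up 0.517% and 0.644% of the RPKM sum in the controls and 1.15% and 1.02% in OXCT1mKO. In bulk samples, more cells of a type and more RNA per cell cannot be told apart. Control 1 stood apart in globin, whose rows, some of them gene copies with shared values, held 8.81% of its RPKM sum against 0.132% to 0.327% in the other libraries.

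Most of the endothelial genes were higher in OXCT1mKO. Of the 38 members, 37 passed the filter of a mean of at least 1 RPKM. A gene is said to have risen or fallen here when its limma adjusted p over all 12523 genes tested was below 0.05. By that rule 23 members rose and 1, Ecscr, fell, while 16.4% of all genes tested rose and 16.4% fell. The remaining 13 did not pass. The median log2 fold change, on the log2(RPKM + 1) scale used throughout, was 0.75 over the 37 members and 0.00 over all genes tested. In 32 members both OXCT1mKO libraries lay above both controls, and in Ecscr both lay below, against 37.6% and 37.0% of all genes tested. These counts depended on having both OXCT1mKO libraries. Without OXCT1mKO 1 the model, in which the lone library is taken to vary as the controls do, called 0 members in either direction (23 had an unadjusted p under 0.05), and without OXCT1mKO 2 it also called 0 (25 unadjusted). Those fits called 1 and 10 genes in all. The fold change was above 0 in 34 and 36 of the 37 members in these fits. Without control 1 the median over the members was 0.58 and without control 2 it was 0.90, with 35 of the 37 above 0 in each. A fit with 1 control takes its residual spread from the OXCT1mKO pair alone, so the spread of the controls drops out. Whether a gene passes in such a fit, as given for single genes below, therefore does not test how the result depends on the controls.

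**Figure D1:**
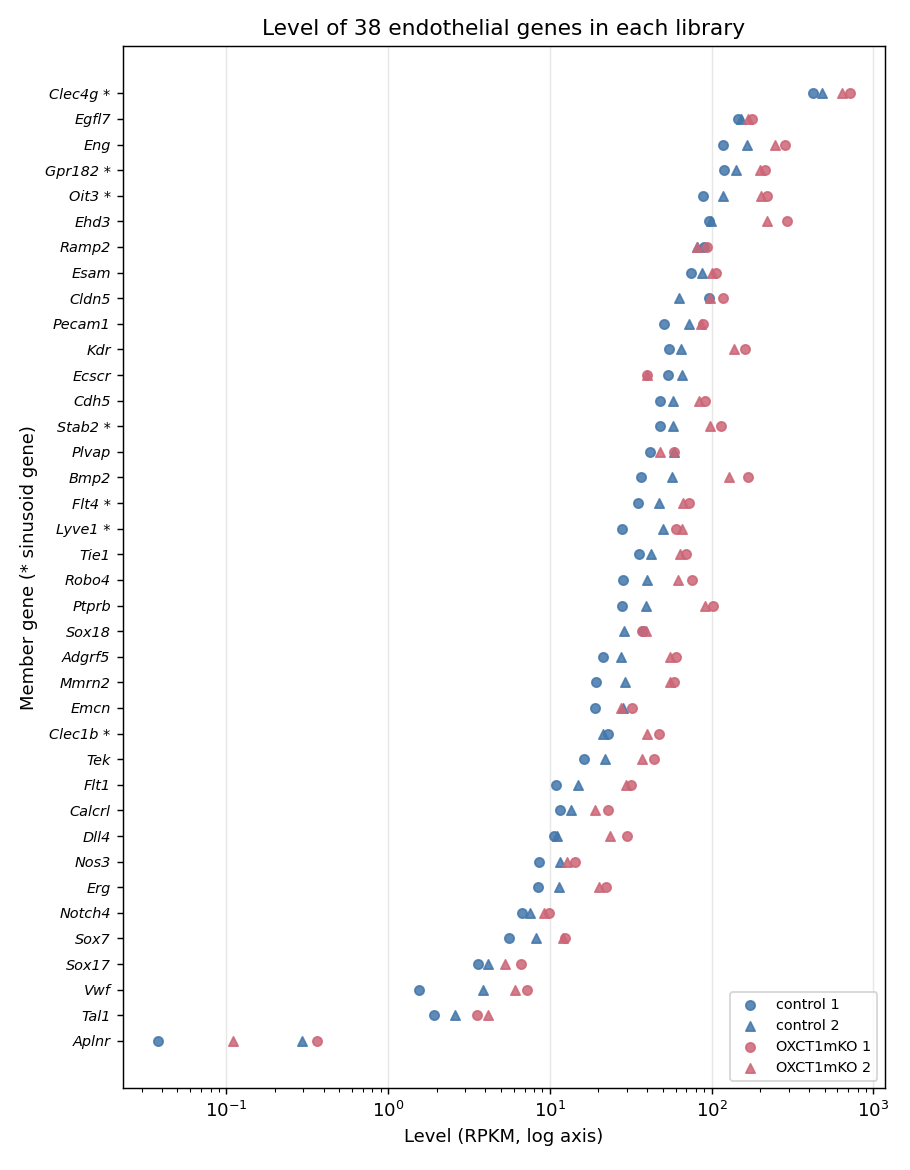
Level of each of the 38 members in RPKM on a log axis, ordered by control mean, with circles for the first and triangles for the second library of control (blue) and OXCT1mKO (red); an asterisk marks the 7 sinusoid genes. Both red points lie to the right of both blue points for 32 of the 37 members tested, and Ecscr shows the opposite order.

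The growth factor and angiopoietin receptors rose without exception among the 6 genes of that role. Kdr, which encodes VEGF receptor 2, the main receptor for VEGF-A signalling in endothelium, was 54.8 and 65.1 RPKM in control libraries against 162 and 137 RPKM in OXCT1mKO. Both OXCT1mKO values were more than those of either control, and the log2 fold change was 1.30 ± 0.14 (SE; 95% interval 0.95 to 1.66, limma adjusted p 0.0127). Kdr lies on the minus strand of chromosome 5 of GRCm38, from 75932827 to 75978458. Flt1, VEGF receptor 1, a high-affinity receptor that also acts as a decoy, was 10.9 and 14.9 RPKM in control libraries against 31.8 and 29.5 RPKM in OXCT1mKO. The log2 fold change was 1.20 ± 0.16 (limma adjusted p 0.0130). Flt4, VEGF receptor 3, known from lymphatic vessels and from liver sinusoids, was 35.1 and 47.7 RPKM against 72.8 and 66.2 RPKM, or 0.75 ± 0.17 on the log2 scale (limma adjusted p 0.0306). The 3 receptors were thus ordered in level as Kdr, Flt4 and Flt1 in every library.

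The angiopoietin receptor Tek, also called Tie2, was 16.4 and 22.1 RPKM in control libraries against 44.1 and 36.9 RPKM in OXCT1mKO (log2 fold change 1.05 ± 0.17). Its partner Tie1, an orphan receptor that modulates Tek, was 35.7 and 42.0 RPKM against 70.0 and 63.9 RPKM (0.77 ± 0.12). In both genes the groups did not overlap. Ptprb encodes VE-PTP, the phosphatase that removes phosphate from Tek and from the VE-cadherin complex. It was 28.1 and 39.3 RPKM in control libraries against 102 and 90.9 RPKM in OXCT1mKO, the second largest log2 fold change of the members at 1.50 ± 0.18, with a 95% interval of 1.04 to 1.97. Ptprb lies on the plus strand of chromosome 10 from 116275523 to 116389535. The limma adjusted p of these 3 genes lay between 0.0127 and 0.0175.

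Junction and surface genes gave a mixed picture, with 2 risen, 1 fallen and 5 not past the threshold among 8. Cdh5, which encodes VE-cadherin, the adhesion protein of endothelial junctions, was 48.1 and 58.1 RPKM in control libraries against 91.1 and 83.6 RPKM in OXCT1mKO (log2 fold change 0.71 ± 0.12, limma adjusted p 0.0189). Eng, endoglin, a co-receptor for BMP9 and BMP10, was 118 and 165 RPKM against 283 and 246 RPKM (0.91 ± 0.19, limma adjusted p 0.0269). Both groups were separate in these genes. Pecam1, the adhesion protein CD31, was 50.9 and 72.3 RPKM in control libraries against 88.1 and 86.0 RPKM in OXCT1mKO, also without overlap, but the difference of 0.51 on the log2 scale missed the threshold (limma adjusted p 0.0847, 95% interval 0.05 to 0.98). Control 2 lay nearer to the OXCT1mKO libraries. Pecam1 stood at 0.76 without control 2 (limma adjusted p 0.0175) and at 0.26 without control 1 (0.0855).

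Esam, a junctional adhesion molecule, was 75.1 and 86.7 RPKM in control libraries against 106 and 100.4 RPKM in OXCT1mKO (log2 fold change 0.35, limma adjusted p 0.0637). It passed without control 2 (0.0317) and with the libraries scaled to equal RPKM sums (0.0403). Cldn5, a tight junction claudin, was 96.0 and 62.8 RPKM against 118 and 98.2 RPKM (0.47, 95% interval -0.12 to 1.06), with the lower OXCT1mKO library just above the higher control. The value was 0.77 without control 1, where it passed (limma adjusted p 0.0349), and 0.17 without control 2. Emcn, the sialomucin endomucin, was 19.0 and 28.5 RPKM in control libraries against 32.1 and 27.6 RPKM in OXCT1mKO, so that the groups overlapped (0.34, -0.20 to 0.88). Without control 1 the value of Emcn was 0.062, and without control 2 it was 0.62 and passed (limma adjusted p 0.0329). Plvap, which forms the diaphragms of fenestrae and caveolae, was 41.7 and 58.8 RPKM against 58.2 and 47.8 RPKM and overlapped as well. Its value of 0.09 (-0.42 to 0.60) was -0.15 without control 1 and -0.05 without OXCT1mKO 1.

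Ecscr, which encodes an endothelial surface protein of cell migration, was the only member to fall. It was 53.6 and 65.7 RPKM in control libraries against 39.6 and 40.0 RPKM in OXCT1mKO, with no overlap. The log2 fold change was -0.56 ± 0.12, with a 95% interval of -0.88 to -0.24 and a limma adjusted p of 0.0296. The call was lost when the libraries were scaled to equal RPKM sums (-0.40, limma adjusted p 0.0972) and without the filter on low genes (limma adjusted p 0.0594). Of its 1752 bases of exon, 62 overlapped the gene 1700066B19Rik on the opposite strand. The sources used here do not state whether counting used the strand.

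Among secreted and matrix proteins 2 of 4 rose. Bmp2, a bone morphogenetic protein that sinusoidal endothelium secretes and that takes part in the control of hepcidin and iron, had the largest log2 fold change of the 37 members. It was 36.7 and 56.9 RPKM in control libraries against 168 and 128 RPKM in OXCT1mKO, or 46.8 ± 14.3 and 148 ± 28.8 RPKM on average (SD, n = 2). The groups were far apart, and the log2 fold change was 1.66 ± 0.25 (95% interval 1.01 to 2.31, limma adjusted p 0.0149). Bmp2 lies on the plus strand of chromosome 2 from 133552159 to 133562885. Mmrn2, an endothelial matrix protein that binds VEGF-A, was 19.4 and 29.2 RPKM against 58.6 and 55.4 RPKM (1.22 ± 0.20, limma adjusted p 0.0167). Vwf, von Willebrand factor, known more from larger vessels than from sinusoids, was low, at 1.55 and 3.87 RPKM in control libraries against 7.27 and 6.12 RPKM in OXCT1mKO. Its groups were separate, the controls lay far apart, and it missed the threshold (1.12 ± 0.32, limma adjusted p 0.0549). The value was 0.66 without control 1 and 1.59 without control 2, both past the threshold. Egfl7, a secreted endothelial protein whose gene hosts a microRNA, was among the most abundant members and differed little, at 147 and 153 RPKM in control libraries against 179 and 169 RPKM in OXCT1mKO (0.22 ± 0.09, limma adjusted p 0.130).

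Receptors for guidance cues and peptides were divided as well. Adgrf5, an adhesion G protein-coupled receptor of vessels, was 21.3 and 27.4 RPKM in control libraries against 60.7 and 55.0 RPKM in OXCT1mKO (log2 fold change 1.22 ± 0.15). Robo4, an endothelial roundabout receptor that stabilises vessels, was 28.4 and 40.2 RPKM against 75.9 and 62.1 RPKM (1.00 ± 0.20). Calcrl, the receptor that binds adrenomedullin when paired with Ramp2, was 11.7 and 13.6 RPKM against 22.8 and 19.0 RPKM (0.68 ± 0.13). These 3 rose with limma adjusted p from 0.0127 to 0.0239 and had no overlap between groups. The call of Calcrl was lost without control 1 (limma adjusted p 0.0523) and without the filter on low genes (0.0529). Ramp2 was 89.5 and 81.4 RPKM in control libraries against 93.5 and 81.4 RPKM in OXCT1mKO, a log2 fold change of 0.03 with a 95% interval of -0.26 to 0.32. Its sign turned without control 2 (-0.036) and without OXCT1mKO 1 (-0.067). In the annotation 33.4% of the exon bases of Ramp2 are shared with Vps25 on the same strand, so the reads of the 2 genes may be mixed and the level is uncertain. Nos3, endothelial nitric oxide synthase, was 8.53 and 11.5 RPKM against 14.4 and 12.8 RPKM (0.42 ± 0.16, limma adjusted p 0.104). It stood at 0.22 without control 1 and at 0.61 without control 2, where it passed (limma adjusted p 0.0284), and 25.2% of its exon bases overlap the antisense gene Gm15587. Aplnr, the apelin receptor, was the member below the filter, at 0.0379, 0.295, 0.365 and 0.111 RPKM in control 1, control 2, OXCT1mKO 1 and OXCT1mKO 2.

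Of the 5 transcription factors 3 rose. Erg, an ETS factor that maintains endothelial identity, was 8.48 and 11.4 RPKM in control libraries against 22.4 and 20.1 RPKM in OXCT1mKO (log2 fold change 1.03 ± 0.16, limma adjusted p 0.0153). Sox7, a SOXF factor of vessel development, was 5.57 and 8.25 RPKM against 12.4 and 12.0 RPKM (0.76 ± 0.18, limma adjusted p 0.0356). Tal1, a basic helix-loop-helix factor of blood and endothelial progenitors, was 1.93 and 2.59 RPKM against 3.57 and 4.18 RPKM (0.58 ± 0.16, limma adjusted p 0.0458, but 0.0952 without control 1). The groups did not overlap in these 3. Sox17, a further SOXF gene known from arteries, was 3.61 and 4.17 RPKM in control libraries against 6.67 and 5.28 RPKM in OXCT1mKO, just short of the threshold (0.51 ± 0.15, limma adjusted p 0.0542). It passed with the libraries scaled to equal RPKM sums (0.0362), and 16.8% of its exon bases overlap the gene Gm37587 on the opposite strand. Sox18 was 37.9 and 28.7 RPKM against 37.3 and 39.3 RPKM, so its groups overlapped (0.21, 95% interval -0.18 to 0.60). The value was 0.40 without control 1, where it passed (limma adjusted p 0.0444), and 0.013 without control 2. Sox18 was the most abundant of the 5 in each library.

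The Notch ligand Dll4, which marks tip cells and arterial endothelium, rose from 10.6 and 11.1 RPKM in the controls to 29.9 and 23.6 RPKM in OXCT1mKO. The controls were close to each other, and the log2 fold change was 1.22 ± 0.14 (95% interval 0.86 to 1.57, limma adjusted p 0.0127). Notch4, the endothelial Notch receptor, was 6.73 and 7.56 RPKM against 9.93 and 9.19 RPKM, separate between groups but short of the threshold (0.38 ± 0.11, limma adjusted p 0.0532). It passed with a minimum mean of 5 RPKM (limma adjusted p 0.0457) and without control 2 (0.0441).

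Among the 7 sinusoid genes 6 rose and Lyve1 did not pass. Stab2, the scavenger receptor that takes up hyaluronan, was 48.1 and 57.9 RPKM in control libraries against 115 and 97.6 RPKM in OXCT1mKO (log2 fold change 0.99 ± 0.14, limma adjusted p 0.0136). Oit3, a secreted protein of sinusoidal endothelium, was 88.8 and 118 RPKM against 221 and 202 RPKM (1.04 ± 0.16, limma adjusted p 0.0155). Clec1b, the lectin CLEC-2, was 22.8 and 21.2 RPKM against 47.6 and 39.7 RPKM (0.95 ± 0.12, limma adjusted p 0.0128). The ratios of group means were 2.00, 2.05 and 1.98, and the groups were separate. In the annotation 3.61% of the exon bases of Clec1b are shared with its neighbour Clec9a. The lectin gene Clec4g, also called LSECtin, was the most abundant of the 7, at 427 and 483 RPKM in control libraries against 718 and 642 RPKM in OXCT1mKO, and rose (0.58 ± 0.13, limma adjusted p 0.0300, but 0.0569 without control 1). Gpr182, a chemokine-scavenging receptor, was 119 and 142 RPKM against 214 and 199 RPKM (0.66 ± 0.12, limma adjusted p 0.0207). Lyve1, a hyaluronan receptor of lymphatic and sinusoidal endothelium, was 27.9 and 50.4 RPKM in control libraries against 60.3 and 65.8 RPKM in OXCT1mKO. Its groups did not overlap, but the controls lay far apart and the value of 0.73 ± 0.28 did not pass (limma adjusted p 0.104). It was 0.32 without control 1 and 1.15 without control 2. Ehd3, an endocytic recycling gene that sinusoidal endothelium is known to express, is counted with the pan-endothelial genes. It was 96.2 and 99.5 RPKM in control libraries against 292 and 221 RPKM in OXCT1mKO, a difference of 1.37 ± 0.16 on the log2 scale (limma adjusted p 0.0127).

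**Figure D2:**
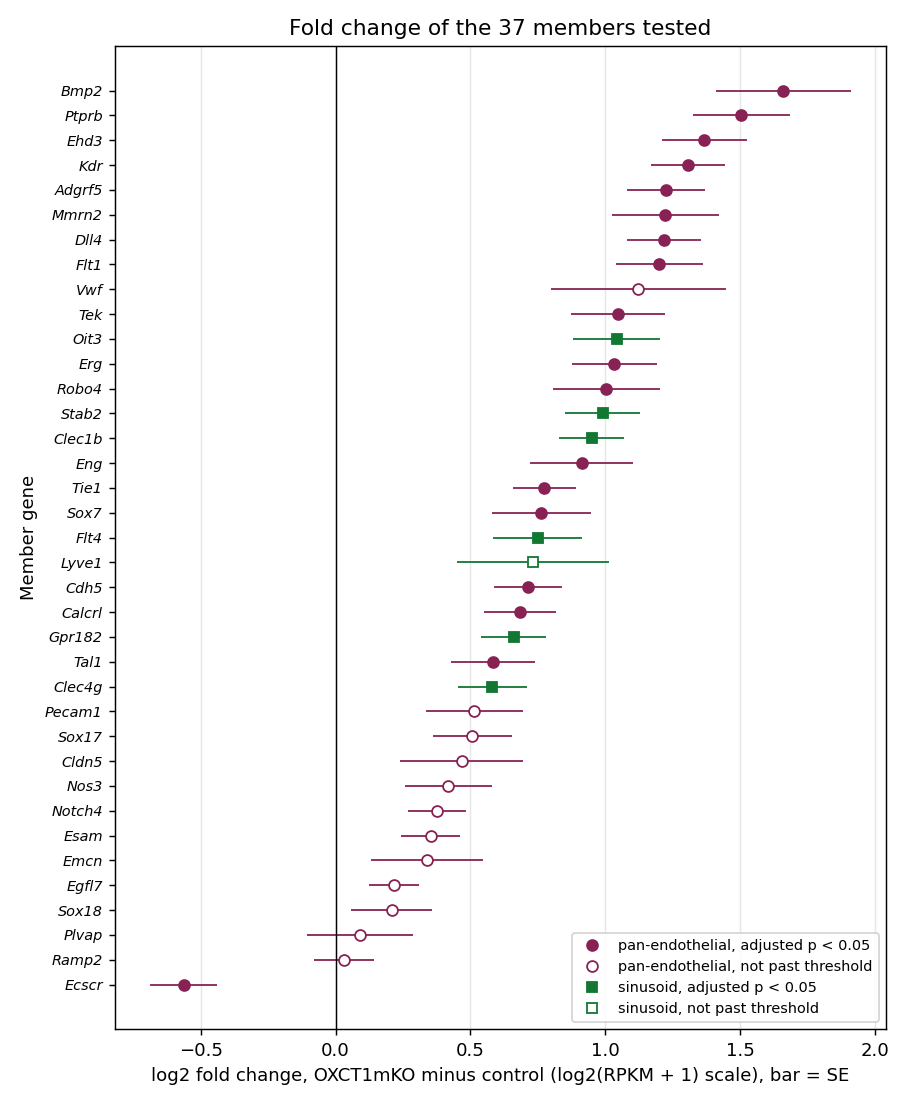
Log2 fold change (OXCT1mKO minus control, log2(RPKM + 1) scale) of the 37 members tested, with bars for the SE; squares are sinusoid and circles pan-endothelial genes, and filled symbols passed a limma adjusted p of 0.05. Values run from -0.56 for Ecscr to 1.66 for Bmp2, and the sinusoid genes of the rule lie in the middle of the range, from 0.58 to 1.04.

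By the split of the rule, the sinusoid and pan-endothelial genes had nearly the same median. It was 0.75 over the 7 sinusoid genes and 0.74 over the 30 pan-endothelial genes tested, of which 17 rose and 1 fell. The sinusoid values spanned 0.58 to 1.04, within the pan-endothelial span of -0.56 to 1.66. The near equality depends on the split, in which Bmp2 (1.66) and Ehd3 (1.37), also known from the sinusoid, count as pan-endothelial. With Ehd3 in place of Flt4, the median of the 7 sinusoid genes was 0.95. In the lists outside the members, described below, it was 0.80 for other sinusoid genes and 0.46 for other pan-endothelial genes. Within libraries, the mean log2 level of the sinusoid genes exceeded that of the pan-endothelial genes by 1.41 and 1.45 in the controls and by 1.48 and 1.52 in OXCT1mKO. The OXCT1mKO libraries had the larger values, with steps of similar size between groups and within them. On summed RPKM, the sinusoid genes stood at 0.650 and 0.670 of the pan-endothelial genes in the controls and at 0.624 and 0.653 in OXCT1mKO, and there the groups overlapped. No p is given for these scores, since the genes are not replicates and were chosen with earlier results known.

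Members were also set against Cdh5 within each library. A ratio of 2 genes in the same library does not depend on how that library was scaled, and Cdh5, whose fold change of 0.71 was near the median, was taken as the denominator after its values were seen. Bmp2 stood at 0.764 and 0.979 of Cdh5 in the controls and at 1.85 and 1.53 in OXCT1mKO. Kdr stood at 1.14 and 1.12 against 1.78 and 1.64, and Ptprb at 0.584 and 0.677 against 1.12 and 1.09. These 3 were higher relative to Cdh5 in both OXCT1mKO libraries. That follows from the choice of genes, since their fold changes were among the largest of the members. Flt4, at 0.730 and 0.820 against 0.799 and 0.792, and Tie1, at 0.743 and 0.722 against 0.768 and 0.765, kept close to Cdh5. Of the other sinusoid genes, Oit3 (1.85 and 2.03 against 2.43 and 2.42) and Stab2 (1.00 and 0.996 against 1.26 and 1.17) were higher. Clec4g (8.88 and 8.31 against 7.89 and 7.69) and Gpr182 (2.48 and 2.44 against 2.34 and 2.38) were lower. Lyve1 and Clec1b overlapped between groups. Egfl7 was lower relative to Cdh5 in OXCT1mKO, at 3.05 and 2.63 against 1.97 and 2.02, and so was Plvap, at 0.867 and 1.01 against 0.639 and 0.572. Ecscr stood at 1.11 and 1.13 in the controls and at 0.435 and 0.479 in OXCT1mKO. These ratios were not tested.

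**Figure D3:**
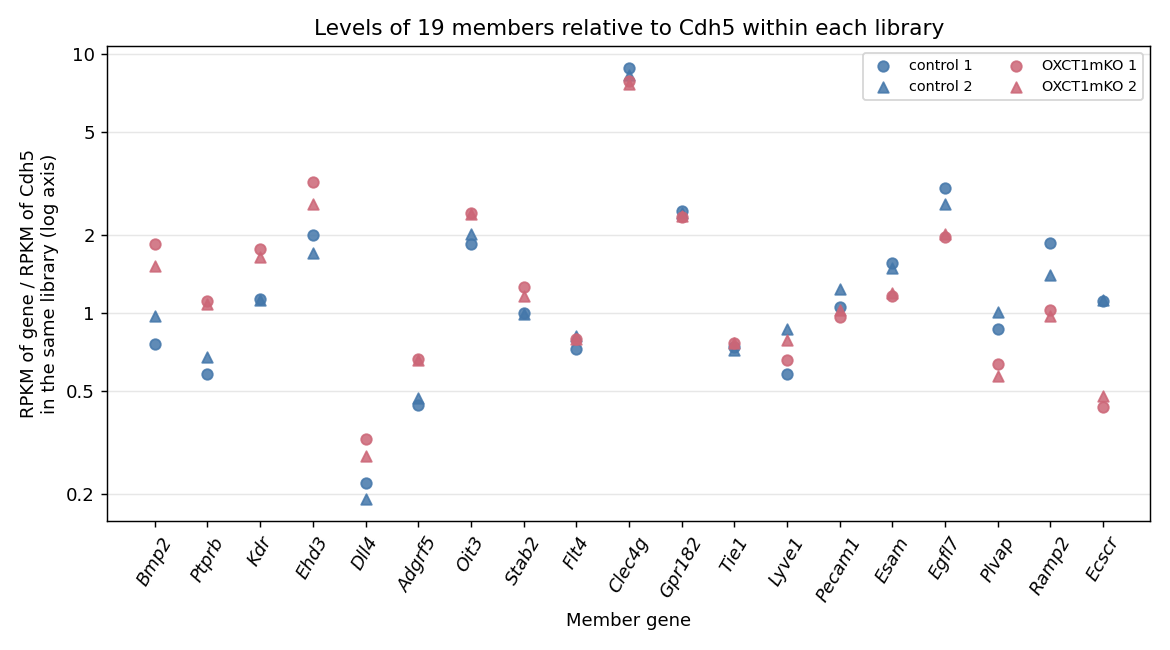
Level of 19 members divided by the level of Cdh5 in the same library, on a log axis, with symbols as for the plot of levels. Bmp2, Ptprb, Kdr, Ehd3, Dll4, Adgrf5, Oit3 and Stab2 are higher in both OXCT1mKO libraries, and Flt4 and Tie1 differ little. Esam, Egfl7, Plvap, Ramp2 and Ecscr are lower, Clec4g, Gpr182 and Pecam1 are slightly lower, and Lyve1 overlaps between groups.

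Fold change moved with the length of the gene model. Summed exon lengths came from the GENCODE M21 annotation of GRCm38. Over the 37 members, the correlation of log2 fold change with log2 exon length was 0.56 (Pearson) and 0.50 (Spearman), and over 12333 tested genes with a length it was 0.23 and 0.31. These are correlations across genes of the same 4 libraries, which share depth and scaling, and are given as a description. Of the 4 members under 2000 bases (Sox18, Plvap, Cldn5 and Ecscr) 0 rose, whereas 8 of 12 rose between 2000 and 4000 bases, 8 of 11 between 4000 and 6000 and 7 of 10 above. The median log2 fold change of all tested genes was -0.26, -0.11, 0.02 and 0.21 in these 4 ranges, and 9.60%, 11.8%, 15.6% and 25.6% of them rose. The member medians were above those values in every range, at 0.15, 0.75, 0.71 and 1.16. Among single members, Bmp2, Oit3 and Dll4, with 3555, 2788 and 3852 bases of exon, rose by 1.66, 1.04 and 1.22, while Pecam1 and Notch4, with 6228 and 8061, did not pass. The correlation of fold change with mean log2 level was 0.01. The part of length in the results was not tested.

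**Figure D4:**
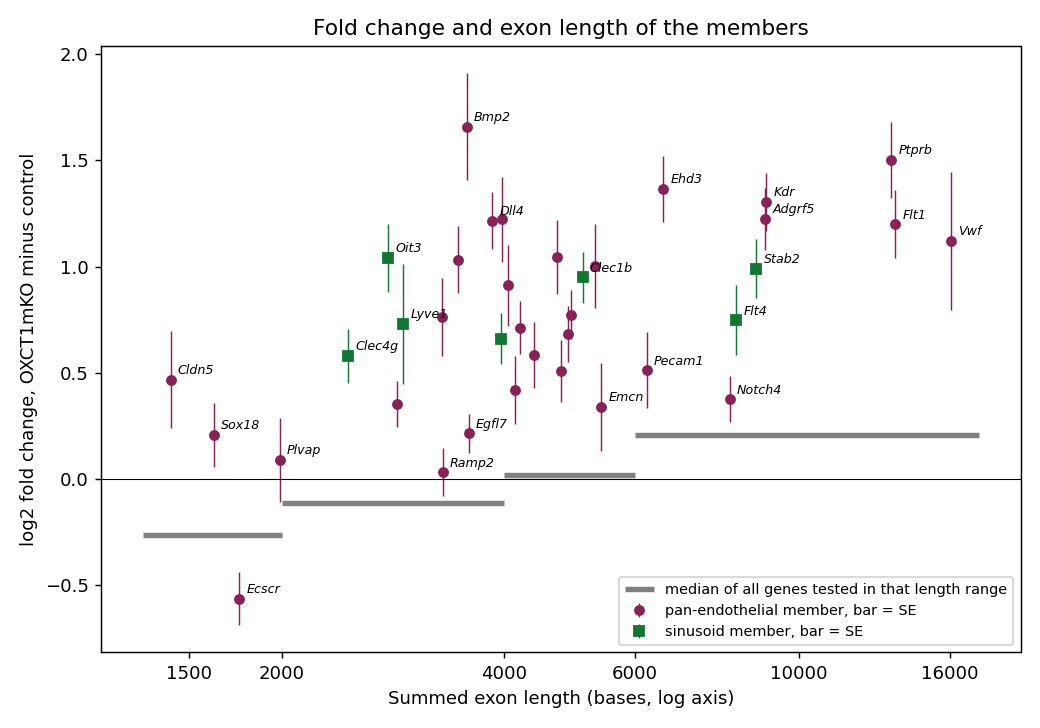
Log2 fold change with its SE against summed exon length in bases (log axis) for the 37 members; grey lines are the medians of all tested genes in 4 length ranges. The short genes Ecscr, Plvap, Sox18 and Cldn5 lie at or below 0.47. Of the members above 6000 bases, Flt1, Ptprb, Kdr, Ehd3 and Adgrf5 lie at 1.20 or above. Vwf, Stab2, Flt4, Pecam1 and Notch4 lie lower, from 0.38 to 1.12.

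Ligands and signalling partners of the members rose in part. Of 23 tested genes in a list of 31, 8 rose and 2 fell, with a median of 0.31, while 16.4% of all genes tested rose and 16.4% fell. Nrp1, the neuropilin that acts beside Kdr, was 31.9 and 32.8 RPKM in control libraries against 89.6 and 69.6 RPKM in OXCT1mKO (1.26 ± 0.14, limma adjusted p 0.0127). Id1, a transcriptional target of BMP signalling, fell from 279 and 236 RPKM to 80.9 and 107 RPKM (-1.45 ± 0.17, limma adjusted p 0.0127). The Notch receptor gene Notch1 rose by 0.89 ± 0.12. Bmp6, which acts with Bmp2 on hepcidin, was 7.51 and 10.7 RPKM against 31.9 and 24.3 RPKM (1.53 ± 0.21). The groups did not overlap in these genes. Vegfa, the ligand of Kdr and Flt1, and Apela, a ligand of the apelin receptor, were chosen after their values were seen. Vegfa was 23.6 and 25.4 RPKM against 39.6 and 46.0 RPKM (0.78 ± 0.11, limma adjusted p 0.0140). Apela fell by 1.84 ± 0.47 from a control level of 8.73 and 2.67 RPKM. Id1 did not stand for the other BMP-related genes of the list, also named after their values were seen. Smad6 rose by 0.75 ± 0.16, while Id3 (0.12 ± 0.13) and Smad7 (-0.17 ± 0.20) did not pass. The activity of BMP signalling was not tested.

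Further endothelial genes outside the 38 were counted from lists that were likewise drawn up with earlier results known. The shares over all genes tested were 16.4% risen and 16.4% fallen. Of 18 other sinusoid genes 12 rose and 0 fell, with a median of 0.80, and the other 6 had values above 0. Stab1, Fcgr2b, Maf, Cd36 and Fcna of this list are also known from macrophages. Those with the smallest p, which rose, were Ltbp4, a latent TGF-beta binding protein (1.80 ± 0.18), Dnase1l3, a secreted nuclease (0.98 ± 0.12), the inhibitory Fc receptor Fcgr2b (1.11 ± 0.13) and Ntn4, a netrin (1.13 ± 0.14). Of 26 other pan-endothelial genes 11 rose and 2 fell, with a median of 0.46. Those with the smallest p were Cyyr1 (1.26 ± 0.13), the surface lectin Clec14a (0.82 ± 0.13), Arhgef15 (0.79 ± 0.12) and Ushbp1 (0.88 ± 0.14), and all of them rose. The 2 that fell, named after their values were seen, were Palmd, by 0.77 ± 0.13, and Fabp4, a fatty acid binding protein of capillaries, by 0.62 ± 0.13.

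Lists of other cell types were set beside these values. Over all genes tested 16.4% rose and 16.4% fell, and 1 gene of 7, or 14.3%, is near that share. Of 7 tested genes of large vessel endothelium 1 rose, the ephrin Efnb2 (1.16 ± 0.19), with a median of 0.19, and the summed level of the list was 87.8 and 130 RPKM in control libraries against 123 and 138 RPKM in OXCT1mKO, which overlapped. Of the 4 lymphatic genes tested 2 rose, Itga9 (1.16 ± 0.11) and the chemokine Ccl21a (2.42 ± 0.44), which has near-identical copies that share reads. Prox1, the factor that defines lymphatic endothelium, was low, at 1.36 and 1.11 RPKM against 2.63 and 1.77 RPKM. Platelet genes were near 0: apart from Pf4, which macrophages also express and which fell by 0.84 ± 0.15, all 10 others were at most 3.32 RPKM in every library. Macrophage markers summed to 1526 and 869 RPKM in control libraries against 1638 and 1806 RPKM in OXCT1mKO, with 5 of 10 risen, 0 fallen and a median of 0.83, close to the median of the endothelial genes. The summed endothelial members stood at 1.28 and 2.64 of that macrophage sum in the controls and at 2.30 and 1.84 in OXCT1mKO. The groups overlapped on that scale. Most of the macrophage sum was C1qa, C1qb and C1qc, none of which passed. They lay further apart in the controls (C1qa 475 and 227 RPKM) than in OXCT1mKO (389 and 439 RPKM). The overlap therefore leans on these genes, and a sum without them was not taken. Kupffer cell markers summed to 32.5 and 28.6 RPKM in control libraries against 384 and 229.5 RPKM in OXCT1mKO, with 6 of 7 risen. Stellate cell genes (0 of 8 risen, 2 fallen), T cell genes (0 of 7 risen, 4 fallen) and epithelial and hepatoma genes (1 of 7 risen, 2 fallen) had medians of -0.40, -1.44 and -0.49, and hepatocyte genes had 1 risen and 2 fallen of 11, with a median of 0.68 and 8 of 11 values above 0. The part of these other cells in the endothelial values was not tested.

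**Figure D5:**
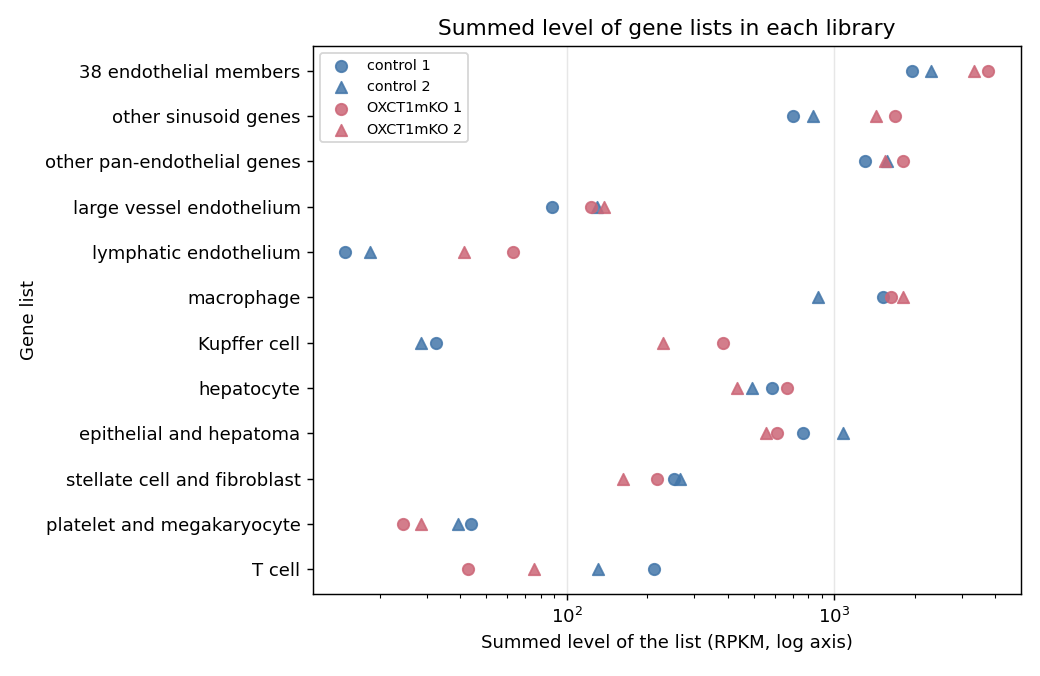
Summed RPKM of the endothelial members and of 11 gene lists in each library, on a log axis, with symbols as for the plot of levels. The summed members lie at 1952 and 2292 RPKM in control libraries against 3771 and 3323 RPKM in OXCT1mKO, and the libraries overlap between groups for the other pan-endothelial, large vessel and hepatocyte lists.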

How the data were processed

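Polyadenylated RNA of 4 libraries, 2 control and 2 OXCT1mKO, was analysed from 1 table of RPKM values that the authors deposited. The submitters' processing notes name STAR 2.10, R 4.0.5 and build mm10, without roles. The sources used here do not give the counter, its strand setting, the annotation or the definition of library size. Absolute depth is unknown. Ratios of low values peaked at relative depths of 1.026, 0.964 and 0.911 for control 2, OXCT1mKO 1 and OXCT1mKO 2, with control 1 set to 1 (5 to 12 ratios per peak, within 0.1%).

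RPKM are not counts, so log2(RPKM + 1) was fitted with limma 3.58.1 in R 4.3.3 (group as the only term, trended variance) for 12523 genes with a mean of at least 1 RPKM. Tests were two-sided with Benjamini-Hochberg adjustment over all genes and a threshold of 0.05. This scale understates the change of low genes. An exact permutation test of 2 against 2 cannot give p below 0.333. Nothing in the labels states separate animals, so p-values reflect only how far these libraries spread, possibly for technical reasons. On simulated data for the 12523 genes with 200 changed, 87.5% of log2 changes of 1 and 99.2% of changes of 2 were recovered, with 5.75% false calls. Genes that move together and groups of unequal spread were not simulated, and the spread of each gene was drawn toward the median. In the data 4110 genes were called, so these rates describe the simulated setting and may not hold here.

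The members and lists were chosen with earlier results of these data known. All members are accounted for, and other lists are given by counts and up to 4 members with the smallest p. Vegfa, Apela, Smad6, Smad7, Id3, C1qa, C1qb, C1qc, Palmd and Fabp4 fall outside that rule and were chosen after their values were seen. Alternatives were other pseudocounts, filters, scalings, a fit without the trend, a replicate block and leaving out each library.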

Additional observations from a re-analysis of the deposited data

How the results depend on the processing

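The 23 members that rose were also called with pseudocounts of 0.1 and 0.5 and without the variance trend. Without a filter on low genes 16 members rose and 0 fell, with Flt4, Eng, Robo4, Calcrl, Sox7, Clec4g, Tal1 and Ecscr lost, and 2340 genes were called in all against 4110 with the filter. Scaling to equal RPKM sums moved the median of all tested genes to 0.15, the sinusoid median to 0.91 and the pan-endothelial median to 0.89. Under it 27 members rose and 0 fell (lowest adjusted p over all members by limma 0.0111), while 2887 genes rose and 1102 fell. Leaving globin out of that scaling gave 28 risen members, while 21.7% of all genes tested rose and their median was 0.09. Quantile normalization gave 25 (Egfl7, Esam and Pecam1 gained, Tal1 lost), while 15.0% of all genes tested rose. Under each of these 3 scalings 36 of 37 fold changes were above 0. With OXCT1mKO 1 or OXCT1mKO 2 left out, the median over the members was 0.71 and 0.81, and with control 1 or control 2 left out 0.58 and 0.90. These fits have equally many libraries. They differ in the pair that gives the residual spread, the controls where an OXCT1mKO library is left out and OXCT1mKO where a control is. Over all tested genes the controls correlated by 0.976 and the OXCT1mKO libraries by 0.988. Over the 4 fits that leave out 1 library, called genes ranged from 1 to 4431, risen members from 0 to 30, fallen members from 0 to 1, the pan-endothelial median from 0.62 to 0.87 and the sinusoid median from 0.54 to 0.96. The signs that turned were those of Plvap (-0.15 to 0.33, and -0.05 without OXCT1mKO 1) and Ramp2 (-0.067 to 0.13, and -0.036 without control 2). The replicate numbers of the labels are not said to pair samples. Deviations from the group means correlated by 0.0545 between same-numbered libraries over 12523 genes. With the replicate number as a block, 24 members rose and 1 fell, while 14.9% of all genes tested rose. Lyve1 and Vwf were gained and Clec4g was lost (limma adjusted p 0.0524), and 3606 genes were called. Read depth is unknown, so no limit of detection is given.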
